A study of Mus musculus with 18 samples.

Results

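The 36 genes described here belong to the antioxidant, glutathione and pentose phosphate systems of mouse cells, and were followed in 4T1 cells, a mouse mammary carcinoma line. They were chosen by gene symbol, with earlier results of these data known, though no measured value entered the rule itself. All 36 were present among the 34591 gene symbols that were counted, and all 36 had enough reads to be tested in every comparison. RNA was collected from 6 groups of 3 libraries each. Wisp1 cells carried a lentiviral vector expressing Wisp1 (CCN4, a secreted matricellular protein), and EV cells carried the empty vector. Both were puromycin-selected stable lines, grown subconfluent either on dishes coated with type I collagen or on uncoated plastic. TGFb1-treated cells were the parental line given fresh RPMI medium with recombinant human TGFb1 at 2 ng/mL for 24 h. Untreated cells were the parental line given fresh medium alone for 24 h. The labels name 1 stable line per vector, so the vector comparison is between these lines.

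NRF2, encoded by Nfe2l2, is a transcription factor that is held at low level by KEAP1, which marks it for degradation. When oxidants or electrophiles modify KEAP1, NRF2 accumulates and, paired with a small MAF protein, binds the antioxidant response element of genes for glutathione synthesis, thioredoxin reduction, NADPH supply and drug export. Glutathione and thioredoxin pass electrons from NADPH to peroxides and electrophiles, and the oxidative branch of the pentose phosphate pathway is a main source of that NADPH. In carcinoma cells these genes are known for their part in oxidant and drug tolerance.

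The core of the antioxidant response element, TGACNNNGC on either strand, was looked for in the promoters of these genes, since it is the letters through which NRF2 is known to act. RefSeq promoters (build GRCm38.p6, from 250 bases before to 50 after a start site) were found for 30 of the 36 genes. The core was present in 11 of those 30 (36.7%), and in 3781 of 27025 genes with a promoter in the same table (14%). AP-1 letters, TGANTCA, were present in 5 of the 30 (16.7%) and in 8.97% of all genes, and they overlapped the core in Prdx1 and Me1. Srxn1, Pgd, Abcc4, Sod1 and G6pdx held the core and were called in a comparison below, with or without a block, but are not printed. Stretches around the core are given for 5 other genes that changed in a comparison described below and for Prdx1. Each is on its gene's strand from 5′ to 3′, with the core in capitals. Of the printed genes, the minus strand holds Nfe2l2 and Me1, and the plus strand holds the others.
Nfe2l2, chr2:75704875-75704913: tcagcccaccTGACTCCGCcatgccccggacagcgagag
Gclm, chr3:122245403-122245451: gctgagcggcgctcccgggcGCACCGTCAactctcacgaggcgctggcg
Gstm5, chr3:107895792-107895840: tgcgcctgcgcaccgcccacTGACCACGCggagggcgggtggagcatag
Txnrd1, chr10:82859094-82859142: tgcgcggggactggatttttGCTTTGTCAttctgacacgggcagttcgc
Me1, chr9:86695912-86695940: cggctcggccgatgccgccgTGACTCAGC
Prdx1, chr4:116685446-116685494: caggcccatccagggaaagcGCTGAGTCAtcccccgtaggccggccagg
In Gclm, Txnrd1 and Prdx1 the core reads on the opposite strand, so it appears above as its reverse complement. The core of Me1 runs across the start site, at the end of the printed stretch. Of the genes called with TGFb1 without the replicate block described below, Gsto1, Gstm1, Cat, Sqstm1 and Fth1 had no core in the window, and Hmox1 had no promoter in the table. Of those called with the block and not without it, Nfe2l2, Gclm, Srxn1, G6pdx and Sod1 held the core, Ftl1, Gstp1, Prdx2, Prdx4, Taldo1, Tkt and Blvrb did not, and Gsta4 had no promoter in the table. A match is a run of letters and was not tested as a binding site. A core outside the window was not looked for. The table had no promoter for Gclc, Gsr, Gsta4, Hmox1, Prdx6 or Abcc1.

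Each library held 37.55 to 94.4 M reads assigned to genes, and levels are given as counts per M reads (CPM) after scaling. The epithelial markers fixed for the line summed to 3093 to 5925 CPM over the 18 libraries. The 4 endothelial genes were each under 1 CPM, and Cd3e and Thy1 were at 0 in every library, while Pdgfra lay at 14.3 to 61.2 CPM and Cd14 at 5.71 to 18 CPM. Wisp1 checked the labels. It had 1110, 1127 and 1058 CPM in Wisp1 cells on collagen, against 14.3, 15.9 and 16.4 CPM in EV cells on collagen. On plastic it had 892, 904 and 1065 CPM in Wisp1 cells and 36.5, 47.0 and 71.4 CPM in EV cells. It also stood at 610.1, 369 and 278 CPM in TGFb1-treated cells and 39.9, 18.1 and 9.14 CPM in untreated cells. The labels do not say how the 3 cultures of a group were obtained, so the tests measure only the spread between these libraries. In such bulk RNA, fewer cells of a kind and less RNA per cell cannot be told apart.

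The least abundant of the 36 genes, Gstm1, had 90 reads in its lowest library, and Fth1 had 184927 in its highest. Group means differed most between the highest and lowest group for Gsto1 (5.97-fold), Gstm1 (5.86-fold) and Gclm (3.39-fold), and least for Prdx1 (1.08-fold). TGFb1-treated cells held the lowest mean of the 6 groups for 13 genes and the highest for 9. The same count over all genes is not given, so these numbers describe only the 36. The coefficient of variation between replicates, as the median over the 4 groups of stable cells, lay between 1.73% for Prdx2 and 39.9% for Gstm1. Over the parental groups it lay between 3.29% for Txn1 and 55.4% for Nqo1. The transferases Gstm1 and Gsta4 and the quinone reductase Nqo1 were thus the genes measured with the least precision.

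The comparison of TGFb1-treated with untreated parental cells asked what the cytokine does to the line. Hmox1 (haem breakdown), Gsto1 (a glutathione transferase), Cat (peroxide removal) and Sqstm1 (the p62 adaptor) rose by 1.57-fold to 3.94-fold over 3 libraries a group. Gstm1, another transferase, and Fth1, the ferritin heavy chain, fell. In edgeR's quasi-likelihood test with Benjamini-Hochberg adjustment over all genes tested, called at an adjusted p under 0.05, 4 of the 36 were higher (11.1%) and 2 lower (5.56%). Of all 14874 genes tested, 6.14% were higher and 4.92% lower. The median log2 change of the 36 was −0.11, and that of all genes tested was −0.01. With 1 library left out the median of the 36 ran from −0.18 (without TGFb1 replicate 1) to 0.039 (without untreated replicate 1). The titles give each treated library a code in common with an untreated library, and those pairs deviated together. With the pairs as a block, 7 of the 36 were higher (19.4%) and 12 lower (33.3%), where 22.4% of all genes were higher and 22.5% lower. The 6 genes called without the block were also called with it. A fit over all 18 libraries with no block called 6 of the 36 higher and 9 lower, where 2601 and 2264 of all 15032 genes were called. For this comparison, calls described as without the block are those of the fit of the parental groups alone. Without the block the counts changed with single libraries, among all genes as well. Leaving out untreated replicate 2 gave 0 of the 36 higher and 0 lower, where 272 and 108 of all 15223 genes were called. Leaving out TGFb1 replicate 2 gave 2 higher and 0 lower, where 355 and 162 of 15212 were called. There were 2 of the 36 higher without untreated replicate 3, where 512 of all 15123 genes were higher. There was 1 lower without untreated replicate 1 or TGFb1 replicate 3, where 416 of 15212 and 338 of 15169 were lower. No library was left out of the fit with the block, so these losses belong to the fit that ignores the pairs.

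**Figure D1:**
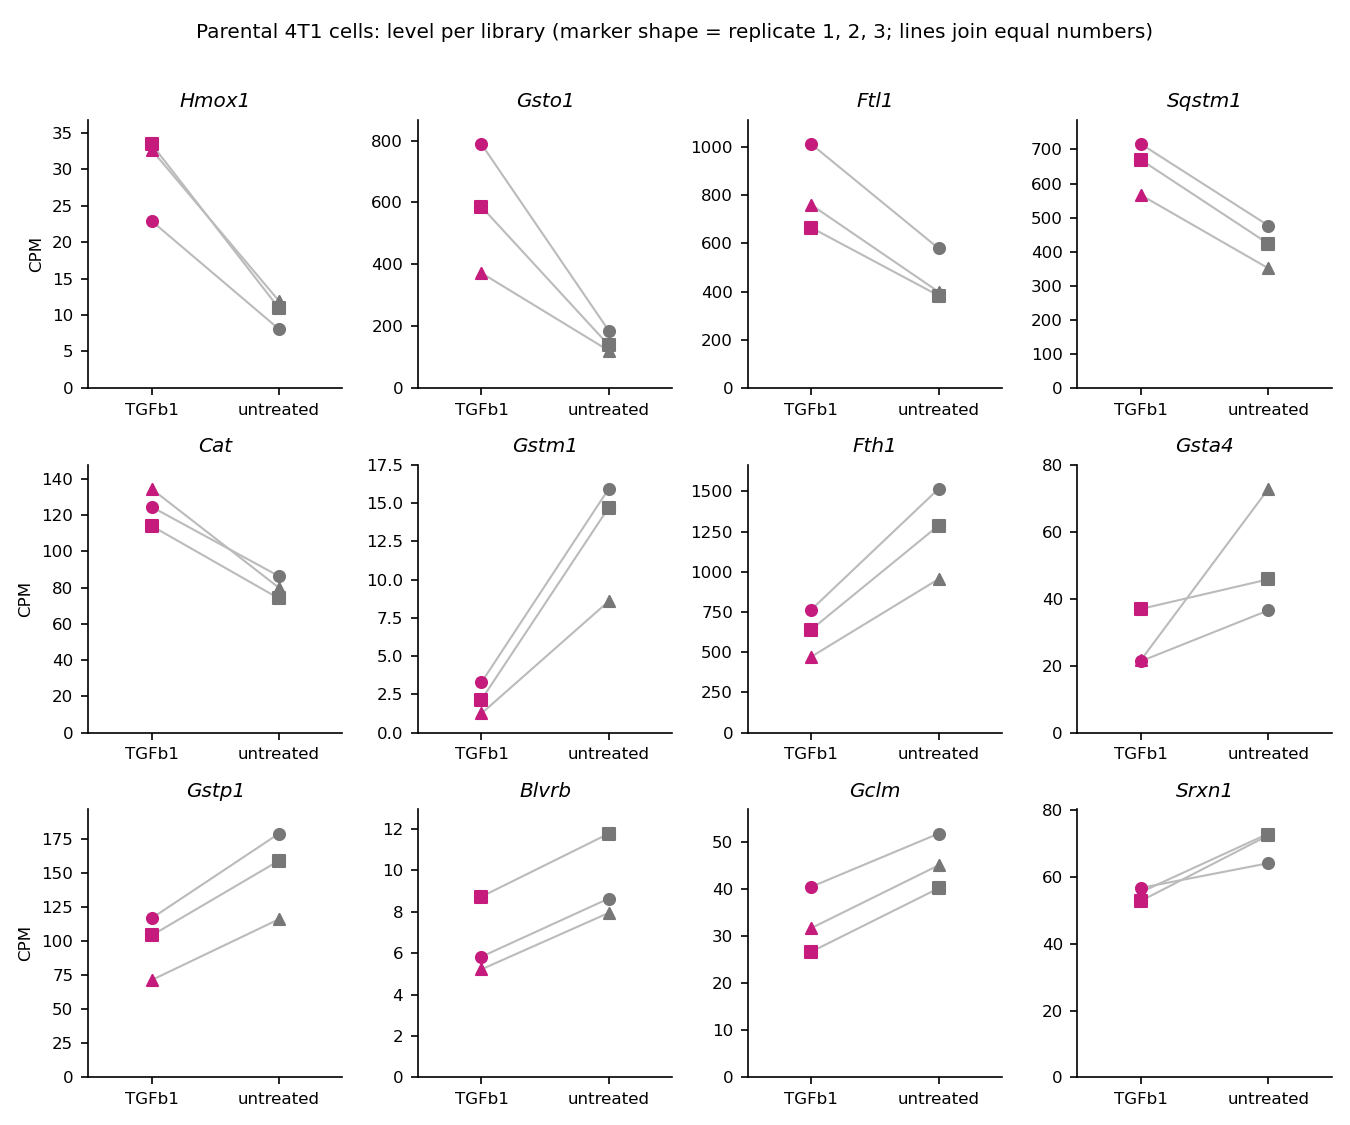
CPM (linear axes that start at 0) of 12 genes in TGFb1-treated and untreated parental cells, 1 point per library, with marker shapes for replicates 1, 2 and 3 and a grey line between libraries that share a code. In Hmox1, Gsto1, Ftl1, Sqstm1 and Cat all 3 treated points lie above all untreated points, in Gstm1, Fth1 and Srxn1 all lie below, and in Gsta4, Gstp1, Blvrb and Gclm the groups overlap while every line runs lower in treated cells.

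Among the regulators, Sqstm1 encodes p62, an autophagy receptor that binds KEAP1. It had 716, 669 and 566 CPM in TGFb1-treated cells, against 477, 423 and 351 CPM in untreated cells. Every treated library exceeded every untreated one, and the change was 1.57-fold (log2 0.65 ± 0.14 SE, adjusted p = 0.0329, with the block 0.000134). In the fit without the block, this call was lost without untreated replicate 2 or 3 or TGFb1 replicate 1 or 2 (adjusted p = 0.0704 to 0.13). Nfe2l2 itself had 99.6, 114 and 99.0 CPM in treated cells, against 138, 138 and 115 CPM in untreated cells. The groups did not overlap by a narrow margin, the log2 change was −0.31 ± 0.12, and it was not called without the block and was called with it (adjusted p = 0.155, with the block 0.0120). Keap1 was not called either way (log2 −0.14 ± 0.21, adjusted p = 0.759, with the block 0.114).

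Haem and iron genes moved in both directions. Hmox1, haem oxygenase 1, which splits haem into biliverdin, iron and carbon monoxide, had 22.9, 33.4 and 32.6 CPM in TGFb1-treated cells, against 8.08, 10.9 and 11.9 CPM in untreated cells. The lowest treated library was well above the highest untreated one, and the level was 2.90-fold higher (log2 1.54 ± 0.22, adjusted p = 0.0100). Leaving out untreated replicate 2 or TGFb1 replicate 2 ended the call (adjusted p = 0.0567 and 0.0508). The chains of ferritin, the protein shell that stores iron, ran in opposite directions. Fth1, the heavy chain, had 764, 641 and 472 CPM in treated cells, against 1515, 1287 and 954 CPM in untreated cells. It was 1.99-fold lower with no overlap (log2 −0.99 ± 0.22, adjusted p = 0.0367, with the block 1.7e-05). In the fit without the block, the call was lost without untreated replicate 1 or 2 or TGFb1 replicate 2 or 3 (adjusted p = 0.082 to 0.132). Ftl1, the light chain, had 1012, 665 and 760 CPM in treated cells, against 579, 383 and 399 CPM in untreated cells. All treated libraries were higher (log2 0.85 ± 0.21), and the gene was just short of a call without the block (adjusted p = 0.0526) and was called with it (6.21e-05). Ftl2, a near-identical copy whose reads may be shared with Ftl1, had a log2 change of 0.89 ± 0.22 (adjusted p = 0.0504, with the block 5.46e-05). Blvrb, biliverdin reductase B, had 5.83, 8.73 and 5.22 CPM in treated cells, against 8.64, 11.8 and 7.95 CPM in untreated cells. The groups overlapped, each treated library was below its partner, and the log2 change was −0.51 ± 0.26 (adjusted p = 0.298, with the block 0.00361). Nqo1, the NAD(P)H quinone reductase, varied most between replicates, and its log2 change was −0.21 ± 0.50 (adjusted p = 0.862).

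The glutathione transferases, which couple glutathione to electrophiles, held the extremes of the whole list. Gsto1, an omega-class enzyme that also reduces dehydroascorbate, had 789, 586 and 372 CPM in TGFb1-treated cells, against 186, 138 and 121 CPM in untreated cells. Even the lowest treated library exceeded the highest untreated one, and the level was 3.94-fold higher (log2 1.98 ± 0.29, adjusted p = 0.0103). Without untreated replicate 2 the adjusted p was 0.0643. Gstm1, a mu-class enzyme, had 3.28, 2.16 and 1.25 CPM in treated cells, against 15.9, 14.7 and 8.58 CPM in untreated cells. It was 5.83-fold lower with no overlap (log2 −2.54 ± 0.41, adjusted p = 0.0132), and the call ended without untreated replicate 2 or TGFb1 replicate 2 (0.0674 and 0.0725). Its paralog Gstm2, with which reads could be shared, had a log2 change of −0.30 ± 0.35 (adjusted p = 0.686, with the block 0.00930). Gsta4, an alpha-class enzyme that acts on the lipid peroxidation product hydroxynonenal, had 21.3, 36.9 and 21.8 CPM in treated cells, against 36.5, 45.8 and 72.7 CPM in untreated cells. The highest treated library lay just above the lowest untreated one, and the log2 change was −0.94 ± 0.32 (adjusted p = 0.126, with the block 0.0255). Gstp1, the pi-class enzyme, had 117, 104 and 71.5 CPM in treated cells, against 179, 159 and 116 CPM in untreated cells. The groups overlapped by a single library, each pair ran lower with treatment, and the log2 change was −0.63 ± 0.22 (adjusted p = 0.137, with the block 0.000122). Its near-identical copy Gstp2 had a log2 change of −0.66 ± 0.27 (adjusted p = 0.189, with the block 0.000418). Gstm5 was not called (log2 −0.12 ± 0.19, adjusted p = 0.769, with the block 0.374).

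Glutathione synthesis begins with glutamate-cysteine ligase, whose catalytic subunit is Gclc and whose modifier subunit is Gclm. Gclm had 40.5, 26.7 and 31.8 CPM in TGFb1-treated cells, against 51.9, 40.2 and 45.1 CPM in untreated cells. The groups met at the edge, every pair ran lower, and the log2 change was −0.46 ± 0.18 (adjusted p = 0.169, with the block 0.00143). Gclc was not called (log2 0.03 ± 0.22, adjusted p = 0.970), and its estimate with the block was −0.005. Gss, glutathione synthetase, and Gsr, glutathione reductase, were not called (log2 0.16 ± 0.12 and −0.15 ± 0.12, adjusted p = 0.476 and 0.491).

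Cat, catalase, which breaks down hydrogen peroxide in peroxisomes, had 124, 114 and 134 CPM in TGFb1-treated cells, against 86.3, 74.0 and 79.9 CPM in untreated cells. All treated libraries were above all untreated ones, by 1.57-fold (log2 0.65 ± 0.11, adjusted p = 0.0151, with the block 0.000361). Without untreated replicate 2 or 3 the adjusted p was 0.0832 and 0.0504. Sod1, the cytosolic copper and zinc superoxide dismutase, was not called without the block and was lower with it (log2 −0.30 ± 0.15, adjusted p = 0.268, with the block 0.00261). Sod2, the mitochondrial manganese enzyme, was not called (log2 0.12 ± 0.12, adjusted p = 0.627).

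None of the 9 thioredoxin, peroxiredoxin and sulfiredoxin genes was called in the edgeR fit of the parental groups without the block, although 2 had an unadjusted p under 0.05. Of 13 alternatives, including the block, Srxn1 was called in 3, Prdx2 in 2 and Prdx4 in 1. Srxn1, the sulfiredoxin that repairs overoxidized peroxiredoxins, had 56.7, 52.9 and 55.5 CPM in TGFb1-treated cells, against 64.1, 72.4 and 73.0 CPM in untreated cells. The groups did not overlap, and the log2 change was −0.33 ± 0.10 (adjusted p = 0.0819, with the block 0.00613). With the block Prdx2 was also higher (log2 0.27, adjusted p = 0.00332) and Prdx4, the peroxiredoxin of the endoplasmic reticulum, lower (log2 −0.22, adjusted p = 0.0319). The others, Txn1, Txnrd1, Prdx1, Prdx3, Prdx5 and Prdx6, had log2 changes from −0.11 (Prdx3) to 0.07 (Prdx5), with adjusted p from 0.505 to 0.972.

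None of the 5 pentose phosphate and NADPH genes was called in the edgeR fit of the parental groups without the block, or in DESeq2. In that edgeR fit 1 had an unadjusted p under 0.05. With the block 2 were lower and 1 higher, where 22.5% of all genes were lower and 22.4% higher. G6pdx was called in 2 of 13 alternatives, including the block. G6pdx, glucose-6-phosphate dehydrogenase, which opens the oxidative branch, had a log2 change of −0.27 ± 0.10 with no overlap (adjusted p = 0.142, with the block 0.0105). Of the non-oxidative branch, Tkt, transketolase, was lower with the block (log2 −0.21, adjusted p = 0.0152) and Taldo1, transaldolase, higher (log2 0.22, adjusted p = 0.0134). Pgd, which follows in the oxidative branch, and Me1, the cytosolic malic enzyme that also makes NADPH, were not called (log2 0.03 ± 0.25 and 0.14 ± 0.09). Neither export pump was called, and the log2 changes were −0.19 ± 0.23 for Abcc1 and −0.16 ± 0.34 for Abcc4.

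Other genes of the same systems, listed apart from the 36, were read beside them. Of all genes tested, 6.14% were higher and 4.92% lower without the block, and 22.4% were higher and 22.5% lower with it. Among 23 tested regulators and other NRF2-linked genes, 4 were higher with TGFb1 and 3 lower without the block, and 7 were higher and 8 lower with it. Single genes are named here from the fit without the block. Bach1 and Bach2, repressors that compete for the same element, were higher (log2 0.54 ± 0.09 and 1.10 ± 0.27, adjusted p = 0.0126 and 0.0469). Aldh3a1, an aldehyde dehydrogenase, and Abcc3, an export pump, were lower (log2 −3.70 ± 0.80 and −1.73 ± 0.35, adjusted p = 0.0321 and 0.0275). Of 28 other glutathione enzymes 2 were higher and 3 lower without the block, and 6 were higher and 9 lower with it. Gpx3, the secreted glutathione peroxidase, and Gsto2, the close relative of Gsto1, were higher (log2 2.54 ± 0.52 and 1.75 ± 0.31, adjusted p = 0.0271 and 0.0179), and Gstt1 and Mgst3 lower (log2 −1.94 ± 0.36 and −0.96 ± 0.18). Of 18 other pentose phosphate and NADPH genes 2 were higher and 5 lower without the block, and 3 were higher and 8 lower with it. Without the block, mitochondrial malic enzyme Me3 was higher (log2 1.45 ± 0.23) and Rpia and Prps2, of the ribose branch, lower (log2 −0.97 ± 0.23 and −0.75 ± 0.15). Tfrc, the transferrin receptor that imports iron, was the only one of 14 other haem and iron genes called without the block (log2 −0.71 ± 0.17, adjusted p = 0.0482), and with the block 3 of the 14 were higher and 3 lower. None of 19 other thioredoxin, glutaredoxin and superoxide genes was called in edgeR without the block, with 2 at an unadjusted p under 0.05, and with the block 3 were higher and 6 lower.

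**Figure D2:**
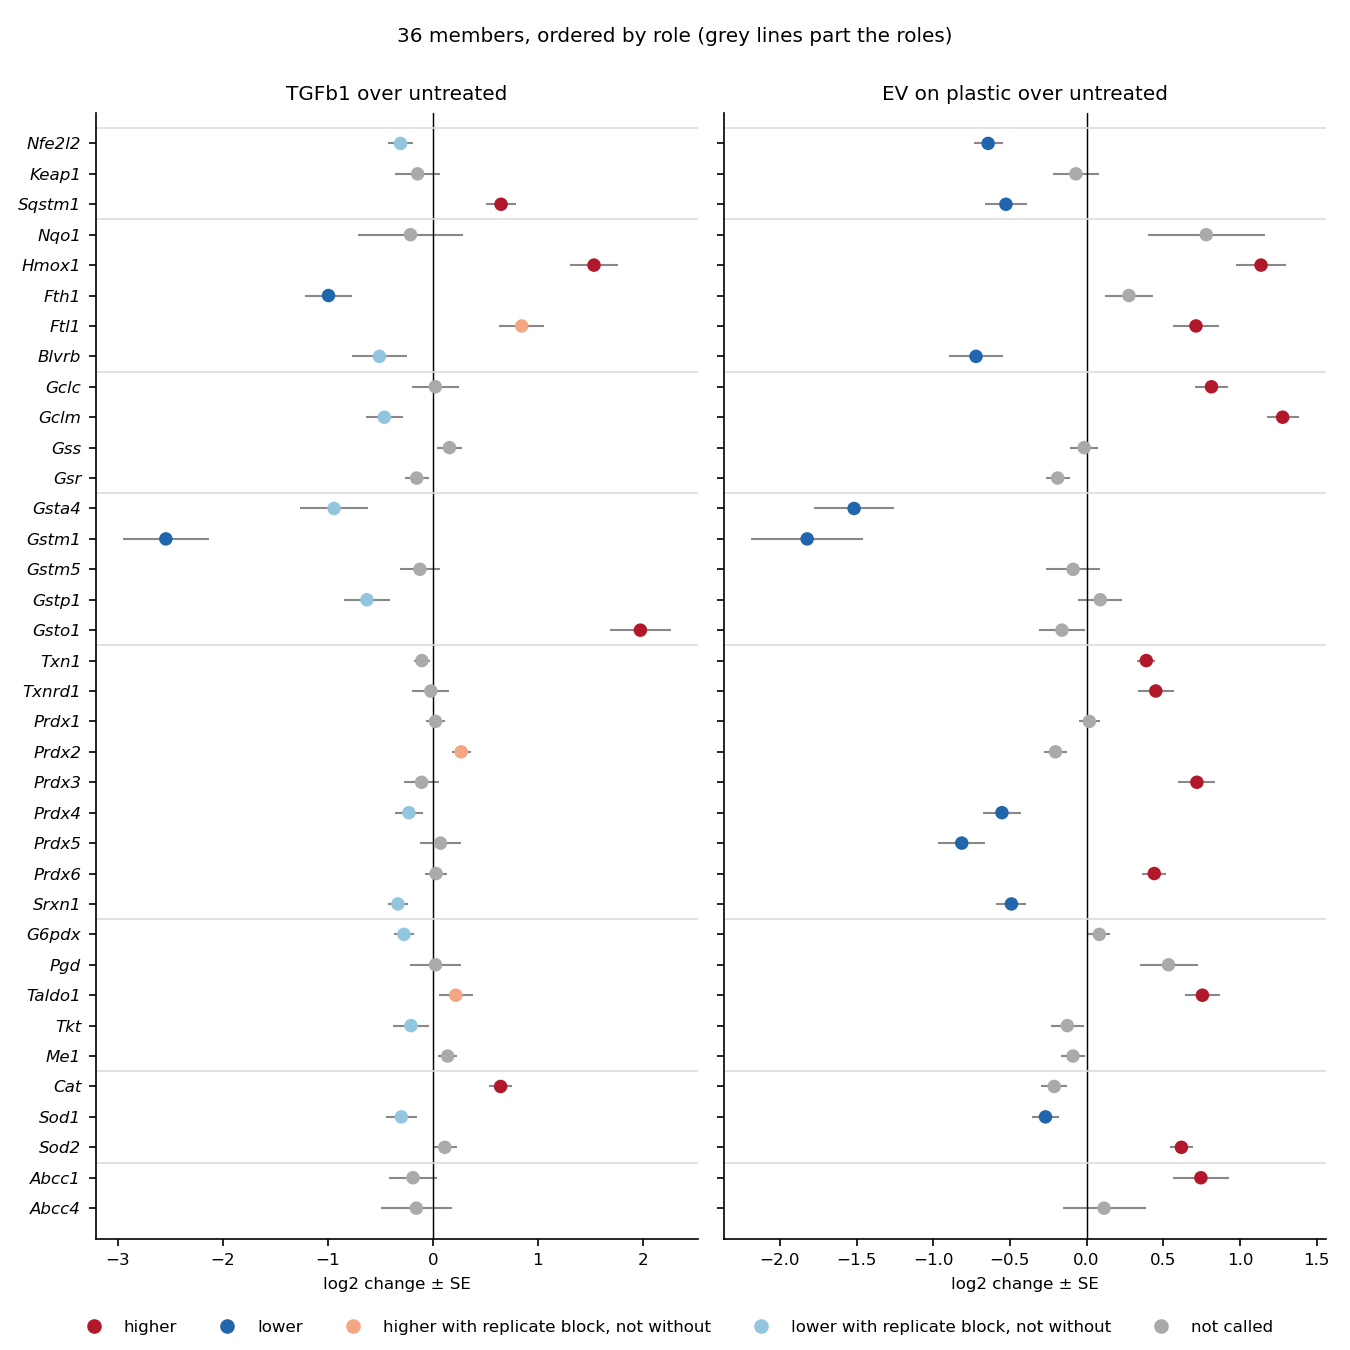
Log2 change ± SE of the 36 genes, ordered by role, with TGFb1 over untreated on the left and EV cells on plastic over untreated on the right. Colour marks the call, pale colours on the left mark calls made with the replicate block and not without it, and the right panel shows calls without a block. Gsto1 (log2 1.98) and Gstm1 (log2 −2.54) are the extremes on the left, and Gclm (log2 1.28) and Gstm1 (log2 −1.82) on the right.

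Wisp1 cells were compared with EV cells on each substrate to ask what the secreted protein does to the line. None of the 36 was called on plastic, where 0.0143% of 13953 genes tested were higher and 0% lower, or on collagen, where 0.043% were higher and 0.0287% lower. In edgeR 2 of the 36 on plastic, Prdx6 and Abcc1, and 0 on collagen had an unadjusted p under 0.05, and DESeq2 called none on either substrate. The median log2 change of the 36 was −0.01 on plastic and 0.03 on collagen, against 0.00 for all genes tested on both. Equal replicate numbers of the lines deviated together on each substrate, though weakly on plastic, and the labels do not say that the numbers mark a pair. With the number as a block within each substrate 1 of the 36 was higher on plastic (2.78%) and 3 were higher on collagen (8.33%), where 2.08% and 1.63% of all genes were higher. With the number as a block over all 4 groups, 0 of the 36 were called on plastic and 0 on collagen. None was lower with the block within a substrate, where 1.08% of all genes on plastic and 0.939% on collagen were lower.

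The block calls were small. Abcc1, which exports glutathione conjugates, had 192, 191 and 202 CPM in Wisp1 cells on plastic, against 172, 172 and 184 CPM in EV cells on plastic. The groups did not overlap, and the log2 change was 0.15 ± 0.05 (adjusted p = 0.758, with the block 0.00331). On collagen Sqstm1 had 439, 351 and 366 CPM in Wisp1 cells, against 375, 336 and 338 CPM in EV cells. The groups overlapped, and the log2 change was 0.14 ± 0.11 (adjusted p = 0.996, with the block 0.0195). Abcc4, an exporter of organic anions and cyclic nucleotides, had 34.5, 40.2 and 44.0 CPM in Wisp1 cells on collagen, against 32.0, 35.5 and 38.5 CPM in EV cells on collagen. Those values overlapped too (log2 0.16 ± 0.08, adjusted p = 0.980, with the block 0.0264). Tkt had 454, 372 and 368 CPM in Wisp1 cells on collagen, against 377, 345 and 370 CPM in EV cells on collagen, and lay at the threshold with the block (log2 0.13 ± 0.06, adjusted p = 0.980, with the block 0.0495). The test of whether the Wisp1 difference changed with substrate called none of the 36 in edgeR, as of all genes (0% higher and 0% lower), with an unadjusted p under 0.05 for Cat alone. DESeq2 called none of the 36 either, and the lowest adjusted p among them in edgeR was 0.973. With the block within each substrate 1 of the 36, Sqstm1, was called (adjusted p = 0.0208).

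Collagen was compared with plastic within each line, which the design allows on 3 libraries a group. In both lines Sod2, Prdx3, Prdx6, Me1, Pgd, Taldo1, Gclc, Gss, Gsto1 and Ftl1 fell on collagen, by at most 1.41-fold, and Keap1 and Prdx5 rose. In EV cells 4 of the 36 were higher (11.1%) and 12 lower (33.3%), where 19.2% of all genes tested were higher and 17.3% lower. In Wisp1 cells 6 were higher (16.7%) and 12 lower (33.3%), where 21.3% of all genes were higher and 19.1% lower. The median log2 change of the 36 was −0.03 in Wisp1 cells and −0.09 in EV cells, against 0.01 and 0.00 for all genes tested. With 1 library left out the median of the 36 ran from −0.055 to 0.002 in Wisp1 cells and from −0.113 to 0.006 in EV cells. In both lines 10 were lower and 2 higher, and none was called in opposite directions. These 12 were 66.67% of the calls among the 36 in Wisp1 cells and 75% of those in EV cells. Over all genes tested, the shared calls were 72.42% of those in Wisp1 cells and 80.18% of those in EV cells. A fit over all 18 libraries, which takes in the wider spread of the parental groups, called 2 of the 36 higher and 5 lower in Wisp1 cells, and 0 higher and 4 lower in EV cells. Of all 15032 genes in that fit, 991 were higher and 1080 lower in Wisp1 cells, and 816 higher and 813 lower in EV cells. Without EV plastic replicate 1 or EV collagen replicate 1, 2 of the 36 were higher in EV cells, where 2150 of 14112 and 2274 of 14069 genes were higher. The summed level of the 6 fibroblast markers, nearly all of it Pdgfra, was 26.5 to 33.6 CPM in Wisp1 cells on collagen, against 16.3 to 18.7 CPM in Wisp1 cells on plastic, and 24.5 to 29.7 CPM in EV cells on collagen, against 15.6 to 21.5 CPM in EV cells on plastic. Thy1 was at 0 and Dcn and Lum were under 0.1 CPM throughout. The 6 leukocyte markers, nearly all Cd14, summed to 8.62 to 11.6 CPM in Wisp1 cells on collagen, against 7.89 to 8.41 CPM in Wisp1 cells on plastic, and 8.33 to 9.52 CPM in EV cells on collagen, against 6.45 to 7.48 CPM in EV cells on plastic. The 8 epithelial markers summed to 3831 to 5036 CPM in Wisp1 cells on collagen, against 3409 to 3813 CPM in Wisp1 cells on plastic, and 3976 to 4364 CPM in EV cells on collagen, against 3400 to 3811 CPM in EV cells on plastic. The part of these markers in the results was not tested.

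Sod2 and Prdx3, both mitochondrial, were lower on collagen in both lines. Sod2 had 61.5, 64.8 and 66.0 CPM in Wisp1 cells on collagen, against 93.2, 92.5 and 87.8 CPM in Wisp1 cells on plastic (log2 −0.50 ± 0.05, adjusted p = 6.83e-06). In EV cells Sod2 had 62.6, 66.5 and 71.4 CPM on collagen, against 89.3, 88.4 and 91.2 CPM on plastic (log2 −0.42 ± 0.05, adjusted p = 3.17e-05). Neither line showed any overlap. Prdx3, the mitochondrial peroxiredoxin, had 102, 110.2 and 108 CPM in Wisp1 cells on collagen, against 151, 150.5 and 147 CPM in Wisp1 cells on plastic (log2 −0.48 ± 0.04, adjusted p = 2.94e-06). In EV cells Prdx3 had 102, 107 and 111 CPM on collagen, against 143, 139 and 139 CPM on plastic (log2 −0.39 ± 0.04, adjusted p = 1.8e-05). All collagen libraries again lay below all plastic libraries. Prdx5, a peroxiredoxin of mitochondria, peroxisomes and cytosol, went the other way. In Wisp1 cells its groups overlapped (log2 0.21 ± 0.07, adjusted p = 0.0378). It had 142, 139.6 and 130.3 CPM in EV cells on collagen, against 109, 115 and 127 CPM in EV cells on plastic, without overlap (log2 0.23 ± 0.07, adjusted p = 0.0251). Leaving out replicate 1 or 2 of collagen or plastic ended its call in either line, with adjusted p of 0.0763 to 0.161 in Wisp1 cells and 0.0811 to 0.0975 in EV cells.

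NADPH and pentose phosphate genes were lower where called. Me1 had 68.4, 58.8 and 62.2 CPM in Wisp1 cells on collagen, against 85.8, 90.1 and 78.0 CPM in Wisp1 cells on plastic (log2 −0.41 ± 0.07, adjusted p = 0.000282). In EV cells Me1 had 66.6, 58.3 and 64.4 CPM on collagen, against 84.5, 89.6 and 81.8 CPM on plastic (log2 −0.43 ± 0.07, adjusted p = 0.000230). The groups did not overlap in either line. Pgd had 216, 194 and 214 CPM in Wisp1 cells on collagen, against 250.2, 255 and 235 CPM in Wisp1 cells on plastic (log2 −0.24 ± 0.05, adjusted p = 0.00327). It was also lower in EV cells (log2 −0.19 ± 0.05, adjusted p = 0.0139), where the call ended without EV plastic replicate 1 or EV collagen replicate 2 (0.0596 and 0.0767). Taldo1 was lower by a small amount in Wisp1 cells (log2 −0.13 ± 0.04, adjusted p = 0.0112) and in EV cells (log2 −0.11 ± 0.04, adjusted p = 0.0282). In EV cells that call ended without replicate 1 or 2 of plastic or of collagen (adjusted p = 0.0535 to 0.0961). G6pdx and Tkt were not called in either line, with log2 changes from −0.15 (G6pdx in EV cells) to −0.03 (Tkt in Wisp1 cells).

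Among glutathione genes, Gclc had 46.6, 48.5 and 59.4 CPM in Wisp1 cells on collagen, against 65.0, 65.5 and 60.3 CPM in Wisp1 cells on plastic, with no overlap (log2 −0.30 ± 0.08, adjusted p = 0.0108). In EV cells Gclc had 50.7, 50.4 and 57.6 CPM on collagen, against 61.9, 63.5 and 60.1 CPM on plastic (log2 −0.22 ± 0.08, adjusted p = 0.0482). That EV call ended without any of EV plastic replicates 1 to 3 or EV collagen replicates 1 and 2 (0.0666 to 0.151). Gss had 16.6, 17.7 and 16.9 CPM in Wisp1 cells on collagen, against 21.7, 20.2 and 20.4 CPM in Wisp1 cells on plastic (log2 −0.28 ± 0.06, adjusted p = 0.00149). In EV cells Gss had 17.2, 17.7 and 17.9 CPM on collagen, against 21.3, 20.1 and 21.1 CPM on plastic (log2 −0.23 ± 0.06, adjusted p = 0.00453). Collagen and plastic libraries did not overlap for Gss in either line. Gclm had 85.0, 84.9 and 105 CPM in Wisp1 cells on collagen, against 115, 118 and 102 CPM in Wisp1 cells on plastic. These values overlapped (log2 −0.28 ± 0.09, adjusted p = 0.0286), and the call ended without replicate 1 or 2 of either substrate (0.0919 to 0.12). In EV cells Gclm was not called (log2 −0.19 ± 0.09, adjusted p = 0.117).

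The omega-class transferase Gsto1 had 97.0, 105 and 97.0 CPM in Wisp1 cells on collagen, against 129.9, 129 and 141 CPM in Wisp1 cells on plastic (log2 −0.41 ± 0.05, adjusted p = 3.44e-05). In EV cells Gsto1 had 92.1, 97.5 and 103 CPM on collagen, against 126, 136 and 139.7 CPM on plastic (log2 −0.45 ± 0.05, adjusted p = 1.8e-05). All collagen libraries were lower. In Wisp1 cells Gstm5 was not called (log2 −0.21 ± 0.15, adjusted p = 0.306). It had 6.17, 4.82 and 4.83 CPM in EV cells on collagen, against 7.60, 7.82 and 6.01 CPM in EV cells on plastic. The groups overlapped (log2 −0.44 ± 0.15, adjusted p = 0.0357), and the call ended without EV plastic replicate 1 or 2 or EV collagen replicate 2 or 3 (0.109 to 0.122). Gstm1, Gsta4 and Gstp1 were not called in either line, and Gstm1 had wide errors (log2 0.43 ± 0.45 in Wisp1 cells and −0.09 ± 0.44 in EV cells).

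The regulators were higher on collagen where called. Keap1 had 89.6, 79.8 and 80.5 CPM in Wisp1 cells on collagen, against 70.4, 70.6 and 74.3 CPM in Wisp1 cells on plastic (log2 0.22 ± 0.04, adjusted p = 0.00110). In EV cells Keap1 had 81.5, 79.3 and 82.9 CPM on collagen, against 67.0, 70.8 and 70.5 CPM on plastic (log2 0.23 ± 0.04, adjusted p = 0.000866). The groups were apart in both lines. Nfe2l2 had 109, 92.5 and 96.0 CPM in Wisp1 cells on collagen, against 81.2, 81.7 and 79.8 CPM in Wisp1 cells on plastic (log2 0.30 ± 0.06, adjusted p = 0.00116). Sqstm1 had 439, 351 and 366 CPM in Wisp1 cells on collagen, against 269.8, 295 and 248 CPM in Wisp1 cells on plastic (log2 0.52 ± 0.11, adjusted p = 0.00247). Both were without overlap in Wisp1 cells. In EV cells neither was called (log2 0.14 ± 0.06 for Nfe2l2 and 0.27 ± 0.11 for Sqstm1, adjusted p = 0.0686 and 0.0706). The difference between lines was not called for either (adjusted p = 0.973 for both), but with the replicate number as a block within each substrate it was called for Sqstm1 (log2 0.24, adjusted p = 0.0208).

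The ferritin chains ran in opposite directions on collagen. The fall of Ftl1 in Wisp1 cells (log2 −0.16 ± 0.05, adjusted p = 0.0285) was not called without Wisp1 plastic replicate 1 or 2 or Wisp1 collagen replicate 2 or 3 (0.0652 to 0.12). In EV cells Ftl1 had 641, 606 and 655 CPM on collagen, against 739, 788 and 726 CPM on plastic, with no overlap (log2 −0.24 ± 0.05, adjusted p = 0.00366). In Wisp1 cells Fth1 was just short of a call (log2 0.28 ± 0.11, adjusted p = 0.0531). Fth1 had 1941, 1778 and 2020 CPM in EV cells on collagen, against 1523, 1653 and 1410 CPM in EV cells on plastic (log2 0.33 ± 0.11, adjusted p = 0.0283). No library overlapped, but the call ended without replicate 1 or 3 of either EV group (0.0637 to 0.0995). Cat, which was not called in Wisp1 cells (log2 −0.01 ± 0.06, adjusted p = 0.911), had 61.0, 58.8 and 59.9 CPM in EV cells on collagen, against 66.2, 74.9 and 68.4 CPM in EV cells on plastic (log2 −0.22 ± 0.06, adjusted p = 0.00704). The difference between lines was not called (log2 0.21 ± 0.08, adjusted p = 0.973). Prdx6, a peroxiredoxin that also acts on phospholipids, had 357, 384 and 369.6 CPM in Wisp1 cells on collagen, against 437, 435 and 438 CPM in Wisp1 cells on plastic, without overlap (log2 −0.23 ± 0.05, adjusted p = 0.00194). It was lower in EV cells as well (log2 −0.19 ± 0.05, adjusted p = 0.00718).

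The remaining calls were in a single line. In Wisp1 cells Prdx4 was higher (log2 0.20 ± 0.04, adjusted p = 0.00155), and in EV cells it was just short of a call (log2 0.11 ± 0.04, adjusted p = 0.0523). Abcc4 was higher in Wisp1 cells (log2 0.22 ± 0.08, adjusted p = 0.0473), a call that ended without any Wisp1 plastic replicate or Wisp1 collagen replicate 2 or 3 (0.084 to 0.207). Txnrd1, the cytosolic thioredoxin reductase, was lower in Wisp1 cells (log2 −0.18 ± 0.06, adjusted p = 0.0308), and that call ended without replicate 1 or 2 of either substrate (0.0559 to 0.122). Abcc1 was higher in EV cells (log2 0.21 ± 0.05, adjusted p = 0.00452). None of these differences between lines was called. Hmox1, Nqo1, Blvrb, Gsr, Txn1, Prdx1, Prdx2, Srxn1 and Sod1 were called in neither line, with log2 changes from −0.10 (Hmox1 in EV cells) to 0.33 (Blvrb in Wisp1 cells). Some calls also ended when low counts were not filtered (Gclm in Wisp1 cells, and Gclc, Taldo1 and Fth1 in EV cells, adjusted p = 0.072 to 0.104), with library totals (Ftl1 in Wisp1 cells and Gclc in EV cells, 0.07 and 0.0525), with the replicate block over the 4 groups (Prdx5 in Wisp1 cells, 0.0591) or with another size factor (Abcc4 in Wisp1 cells, 0.0561). The fit over all 18 libraries also ended calls, among them Keap1 (adjusted p = 0.392 in Wisp1 cells and 0.389 in EV cells), Gsto1 (0.135 and 0.12) and Pgd (0.313 and 0.453). In that fit Prdx4 in Wisp1 cells (0.244) and Abcc1 in EV cells (0.515) also lost their calls. Sod2, Prdx3, Me1 and Gss stayed called in both lines in all 13 alternatives. Of the other pentose phosphate and NADPH genes, 3 of 17 were higher and 10 lower in Wisp1 cells, and 2 were higher and 10 lower in EV cells. Of 24 other glutathione enzymes tested, 7 were higher and 1 lower in Wisp1 cells, and 6 were higher and 3 lower in EV cells. Of all genes tested, 21.3% were higher and 19.1% lower in Wisp1 cells, and 19.2% were higher and 17.3% lower in EV cells. Counts of the remaining related lists are not given for this comparison.

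**Figure D3:**
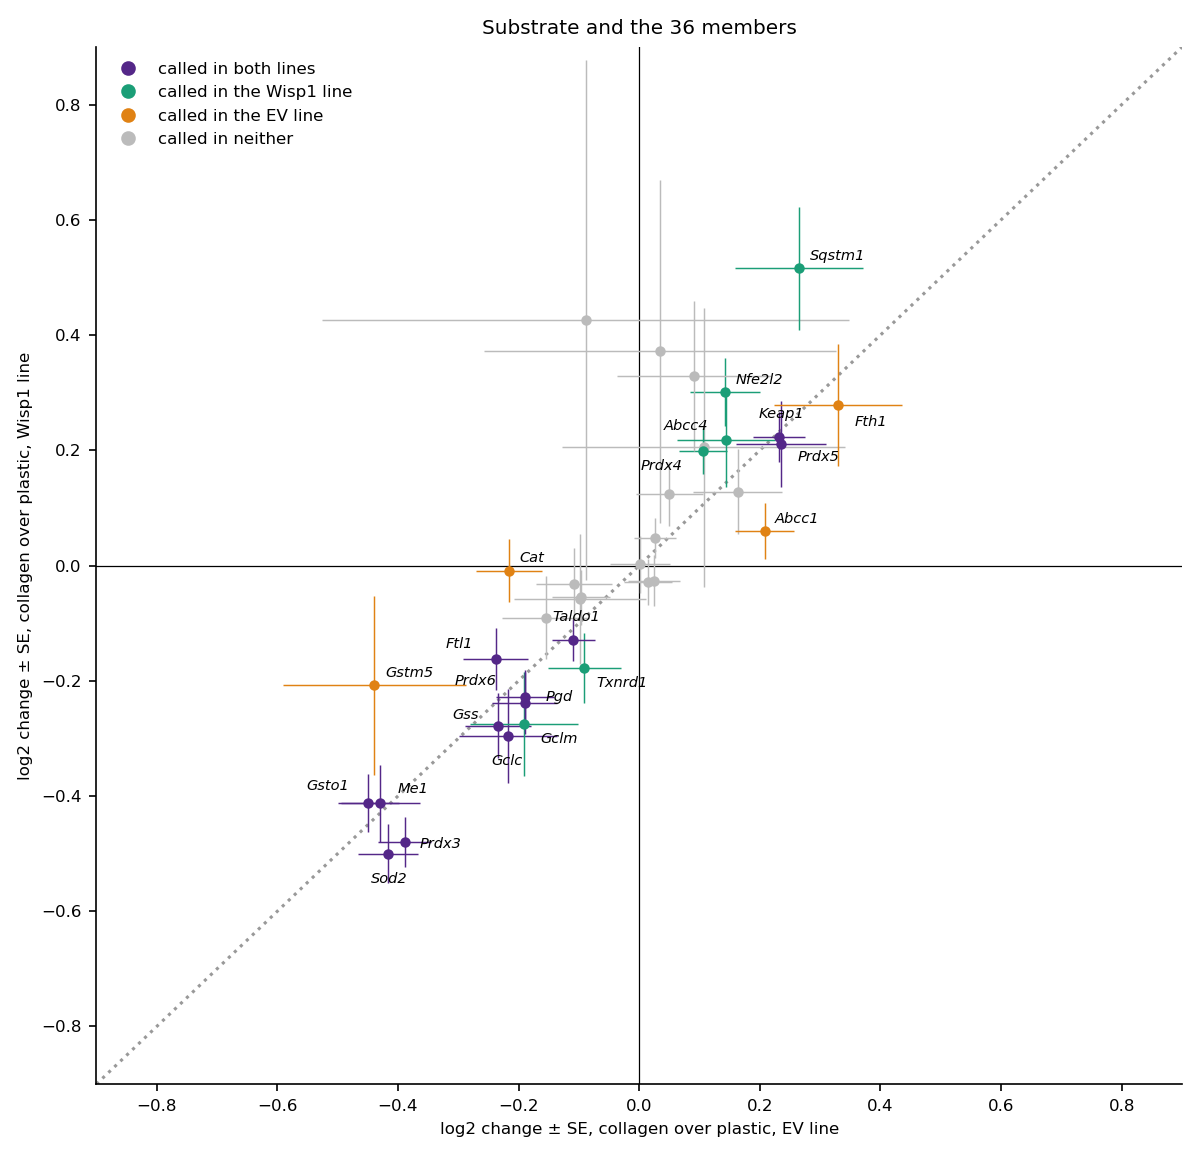
Log2 change ± SE of each of the 36 genes on collagen over plastic, with Wisp1 cells on the vertical and EV cells on the horizontal axis, coloured by the line in which the gene was called. The dotted line marks equal changes. Sod2, Prdx3, Me1 and Gsto1 lie towards the lower left, and Keap1 and Prdx5 are the genes called higher in both.

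EV cells on plastic were also set against untreated parental cells, a comparison in which vector, selection, culture, medium change and library set differ together and cannot be told apart. Both glutamate-cysteine ligase genes, mitochondrial Prdx3 and Sod2, Hmox1 and Ftl1 were among those higher in EV cells, and Gstm1, Gsta4 and Nfe2l2 among those lower. Of the 36, 11 were higher (30.6%) and 9 lower (25%), where 19.5% of 14476 genes tested were higher and 23.8% lower. The median log2 change of the 36 was 0.00, and that of all genes tested was −0.05. With 1 library left out the median of the 36 ran from −0.046 (without untreated replicate 3) to 0.098 (without untreated replicate 1). The untreated libraries are also those of the TGFb1 comparison, so the values of both are given side by side without a test between them. The summed level of the 6 fibroblast markers was 15.6 to 21.5 CPM in EV cells, against 34.3 to 58.6 CPM in untreated cells, and that of the 6 leukocyte markers, nearly all Cd14, was 6.45 to 7.48 CPM in EV cells, against 8.18 to 14.8 CPM in untreated cells. Their part in these results was not tested.

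Gclm had 117, 109 and 109 CPM in EV cells on plastic, against 51.9, 40.2 and 45.1 CPM in untreated cells. Every EV library was far above every untreated one, and the change was 2.42-fold (log2 1.28 ± 0.10, adjusted p = 0.000486). Gclc had 61.9, 63.5 and 60.1 CPM in EV cells, against 37.5, 29.8 and 37.1 CPM in untreated cells, with no overlap (log2 0.81 ± 0.11, adjusted p = 0.00166). With TGFb1 the log2 change of Gclm was −0.46, called with the block and not without it, and that of Gclc was 0.03. Slc7a11, which imports the cystine used for glutathione, was higher in EV cells as well (log2 1.14 ± 0.21, adjusted p = 0.00490). Gss and Gsr were not called (log2 −0.02 ± 0.09 and −0.19 ± 0.08, adjusted p = 0.904 and 0.0853).

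The transferases Gstm1 and Gsta4 fell. Gstm1 had 3.75, 5.32 and 2.07 CPM in EV cells on plastic, against 15.9, 14.7 and 8.58 CPM in untreated cells. The groups were apart, with the level 3.54-fold lower (log2 −1.82 ± 0.37, adjusted p = 0.00730). Gsta4 had 19.1, 20.4 and 15.3 CPM in EV cells, against 36.5, 45.8 and 72.7 CPM in untreated cells, 2.86-fold lower without overlap (log2 −1.52 ± 0.26, adjusted p = 0.00400). Gstm2 was lower too (log2 −1.69 ± 0.22, adjusted p = 0.00166). Gsto1, which was higher with TGFb1, was not called in EV cells (log2 −0.16 ± 0.15, adjusted p = 0.401), and neither were Gstm5 and Gstp1 (log2 −0.09 ± 0.17 and 0.09 ± 0.14).

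Of the haem and iron genes, Hmox1 had 22.1, 24.7 and 22.1 CPM in EV cells on plastic, against 8.08, 10.9 and 11.9 CPM in untreated cells. It was 2.20-fold higher with no overlap (log2 1.14 ± 0.16, adjusted p = 0.00214). Ftl1 had 739, 788 and 726 CPM in EV cells, against 579, 383 and 399 CPM in untreated cells (log2 0.71 ± 0.15, adjusted p = 0.00915). All EV libraries were higher, while Fth1 was not called (log2 0.28 ± 0.15, adjusted p = 0.184). Blvrb had 5.57, 6.20 and 5.59 CPM in EV cells, against 8.64, 11.8 and 7.95 CPM in untreated cells (log2 −0.72 ± 0.18, adjusted p = 0.0150). No library overlapped, but the Blvrb call ended without EV plastic replicate 1, 2 or 3 (0.0502 to 0.067). Nqo1 overlapped between groups (log2 0.78 ± 0.38, adjusted p = 0.133).

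Peroxiredoxins split by gene. Prdx3 had 143, 139 and 139 CPM in EV cells on plastic, against 101, 81.0 and 71.7 CPM in untreated cells (log2 0.72 ± 0.12, adjusted p = 0.00376). Prdx5 had 109, 115 and 127 CPM in EV cells, against 166, 252 and 194 CPM in untreated cells (log2 −0.81 ± 0.15, adjusted p = 0.00559). The groups were apart for both, with Prdx3 higher and Prdx5 lower in EV cells. Prdx6, Txn1 and Txnrd1 were higher (log2 0.44 ± 0.08, 0.39 ± 0.06 and 0.45 ± 0.12), and Prdx4 and Srxn1 lower (log2 −0.55 ± 0.12 and −0.49 ± 0.10). The Txnrd1 call ended without untreated replicate 2 or any EV plastic replicate (adjusted p = 0.0527 to 0.0719). Prdx1 and Prdx2 were not called (log2 0.02 ± 0.07 and −0.20 ± 0.07, adjusted p = 0.839 and 0.0545).

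Taldo1 had 101, 108 and 102 CPM in EV cells on plastic, against 72.1, 57.1 and 53.5 CPM in untreated cells (log2 0.76 ± 0.11, adjusted p = 0.00253). Without a block it was the only one of the 5 pentose phosphate and NADPH genes among the 36 to be called, and its groups were apart. Pgd was higher in every EV library but just short of a call (log2 0.53 ± 0.19, adjusted p = 0.0550), and G6pdx, Tkt and Me1 had log2 changes from −0.13 (Tkt) to 0.08 (G6pdx). Sod2 was higher (log2 0.62 ± 0.07, adjusted p = 0.00113). Sod1 was called lower (log2 −0.27 ± 0.09, adjusted p = 0.0438), and the call ended without untreated replicate 1 or 2 or any EV plastic replicate (0.117 to 0.145), in DESeq2 (0.0996), with another size factor (0.0674), when low counts were not filtered (0.0702) and with the replicate block (0.0638). That block has little basis here, since equal numbers of EV plastic and untreated libraries did not deviate together. Cat was not called (log2 −0.21 ± 0.09, adjusted p = 0.0809).

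Nfe2l2 had 82.5, 91.2 and 78.8 CPM in EV cells on plastic, against 138, 138 and 115 CPM in untreated cells. The groups were apart, and the level was 1.56-fold lower (log2 −0.64 ± 0.09, adjusted p = 0.00228). Sqstm1 was lower (log2 −0.53 ± 0.14, adjusted p = 0.0194), where with TGFb1 it was higher, and its call ended without untreated replicate 2 or EV plastic replicate 1 or 3 (0.0673 to 0.0823). Keap1 was not called (log2 −0.07 ± 0.15, adjusted p = 0.723). Abcc1 had 172, 172 and 184 CPM in EV cells on plastic, against 136, 98.4 and 78.0 CPM in untreated cells. All EV libraries were higher (log2 0.74 ± 0.18, adjusted p = 0.0151), though the call ended without untreated replicate 2 or EV plastic replicate 3 (0.0652 and 0.0601). Abcc4 was not called (log2 0.11 ± 0.27, adjusted p = 0.753).

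Related genes outside the 36 were read in this comparison too, where 19.5% of all 14476 genes tested were higher and 23.8% lower. Of 25 other glutathione enzymes tested, 4 were higher and 14 lower, with Chac1 and Chac2, which degrade glutathione, higher (log2 1.16 ± 0.23 and 0.95 ± 0.29) and Gstt1 and Oplah lower (log2 −3.51 ± 0.32 and −2.88 ± 0.48). Of 23 other NRF2-linked genes, 4 were higher and 10 lower. Besides Slc7a11, the aldose reductase gene Akr1b3 was higher (log2 0.93 ± 0.13), and Aldh3a1 and Abcc3 were lower (log2 −4.0 ± 0.43 and −3.71 ± 0.25), as they were with TGFb1 over the same untreated libraries. Of 17 other pentose phosphate and NADPH genes, 8 were higher and 2 lower, among them the mitochondrial folate enzymes Mthfd2 and Mthfd1l (log2 1.65 ± 0.09 and 0.80 ± 0.11) and, lower, Idh1 and Rpia (log2 −1.52 ± 0.14 and −0.69 ± 0.14). Of 19 thioredoxin, glutaredoxin and superoxide genes, 4 were higher, among them Sesn2 and Txnrd3 (log2 0.88 ± 0.28 and 0.78 ± 0.24), and 6 lower, among them the extracellular dismutase Sod3 and the glutaredoxin Glrx (log2 −4.21 ± 0.53 and −1.89 ± 0.15). Of 14 haem and iron genes, at most 2 in each direction are named here. Ftl2 and the haem transporter Slc48a1 were higher (log2 0.74 ± 0.15 and 0.55 ± 0.18), and the iron exporter Slc40a1 and the haem synthesis enzyme Alas1 lower (log2 −0.90 ± 0.29 and −0.42 ± 0.12).

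**Figure D4:**
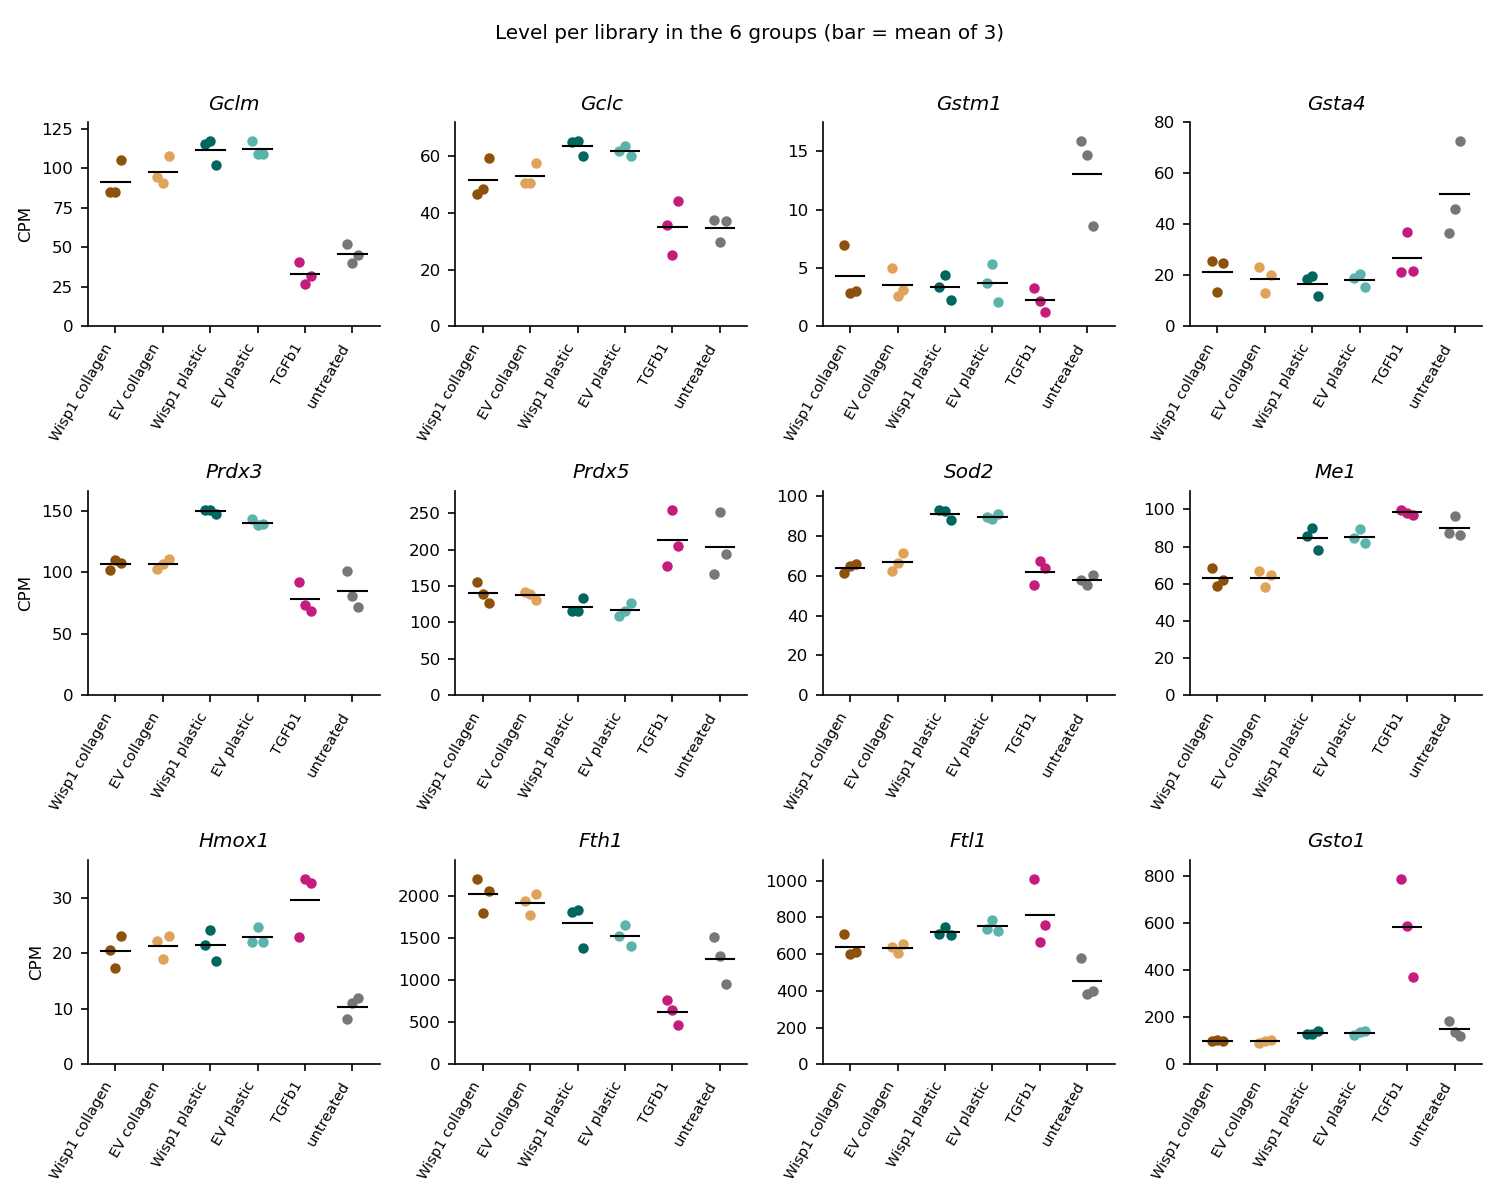
CPM (linear axes that start at 0) of 12 genes in the 6 groups, 1 point per library with a bar at the mean of 3. Gclm and Gclc are higher in the 4 stable-line groups than in both parental groups, Gstm1 is high in untreated cells, Prdx3 and Sod2 are highest on plastic in the stable lines, and Gsto1 is high in TGFb1-treated cells.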

How the data were processed

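Poly(A)-enriched RNA was sequenced from stranded libraries, and the deposited files hold whole-number read counts per gene symbol, 1 file per library. Per the submitters' processing notes, CASAVA, BWA, STAR, HTSeq and limma in R 3.2.4 were used with build mm9. Neither the annotation nor the use of strand in counting is stated. Reads from overlapping or antisense genes, and from close copies such as Ftl2 or Gstp2, therefore cannot be told apart with certainty. Entries that name no gene were left out of the totals (10.23% to 13.52% of entries outside genes, 1.019% to 2.082% ambiguous, 1.841% to 3.467% not aligned).

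Counts were tested with edgeR 4.0.16 (R 4.3.3): low counts filtered by group, TMM scaling, robust quasi-likelihood fits, Benjamini-Hochberg adjustment over all genes tested, calls at an adjusted p under 0.05. Parental groups were fitted together, the 4 stable-line groups together, and EV on plastic with untreated in a separate fit. Levels are CPM with TMM scaling over all 18 libraries; a standard error is the log2 change divided by the root of the F statistic. DESeq2 1.42.0, other size factors, other filters, a fit over all libraries, replicate blocks and each library left out were alternatives. Scripts were tested on simulated data.

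Codes in the titles pair TGFb1-treated with untreated libraries; deviations from group means correlated at 0.789, 0.547 and 0.776. Equal numbers of Wisp1 and EV libraries correlated at 0.121, 0.211 and 0.22 on plastic and 0.473, 0.152 and 0.338 on collagen, so the block was used within a substrate. Between collagen and plastic they correlated at −0.031, −0.069 and −0.015 in Wisp1 cells and 0.123, −0.126 and 0.285 in EV cells. Between EV plastic and untreated libraries the values were −0.113, 0.028 and −0.052. Blocks across substrates or between EV and untreated cells are alternatives with little sign of pairing. No 2 replicates were alike within counting noise (chi-square per degree of freedom 3.135 to 197.6).

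The 36 genes and the lists of related genes were chosen with earlier results of these data known. Values in every library are given for genes called with or without the block, at most the 12 with the largest log2 change per comparison, a few others being added after their values were seen; of each related list, up to 2 genes called higher and 2 lower with a mean of at least 1 CPM are named. Promoters come from RefSeq on GRCm38.p6, another build than that of the counts, so only names join them.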

Additional observations from a re-analysis of the deposited data

How the results depend on the processing

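Of the TGFb1 comparison, 1645 genes were called in all, 2717 with DESeq2, 4865 with all 18 libraries in 1 fit, 6672 with the replicate block and 380 to 1430 with a library left out. Of the 36 genes, 4 were lower with DESeq2, 9 with all libraries in 1 fit and 12 with the block. Of all genes, 1293, 2264 and 3346 were lower in those fits. With the block 7 of the 36 and 3326 of all genes were higher. With a library left out 0 to 5 of the 36 were higher and 0 to 2 lower. Wisp1 against EV on plastic had 2 calls in all, 18 with DESeq2, 1 with the strict filter or all libraries, 440 with the replicate block within each substrate, and 1 to 2 with a library left out; the block called 1 of the 36. On collagen there were 10 calls, 40 with DESeq2, 32 with no filter, 6 with the strict filter, 4 with all libraries, 18 with the block over all 4 groups, 358 with the block within each substrate and 5 to 11 with a library left out; the block within substrate called 3 of the 36. The change of the Wisp1 effect with substrate had 0 calls in edgeR, 1 with DESeq2, 70 with the block within each substrate, where 1 of the 36 was called, and 0 to 1 with a library left out. Collagen against plastic had 5641 calls in Wisp1 cells, 2071 with all libraries and 4450 to 5443 with a library left out, with 2 and 5 of the 36 higher and lower with all libraries and 5 to 7 and 9 to 12 with a library left out. In EV cells it had 5095 calls, 1629 with all libraries and 3849 to 4598 with a library left out. Of the 36, 0 were higher and 4 lower with all libraries, and 2 to 5 higher and 8 to 11 lower with a library left out. With the block over all 4 groups 7 of the 36 were higher, where 2956 of all 13953 genes were higher. The block within each substrate gives no value there, since substrate varies between its blocks. Wisp1 against EV called 0 of the 36 whichever library was left out. EV against untreated ranged from 3711 to 8557 calls with a library left out (6276 without), and from 9 to 14 higher and 6 to 10 lower of the 36. With the replicate block 13 of the 36 were higher and 8 lower, where 2462 and 2846 of all 14476 genes were called. Sod1 lost its call with that block (adjusted p = 0.0638). The median of all genes in that comparison was −0.05 with TMM and −0.162 with DESeq2. Among the genes followed under the alternatives, signs turned for uncalled genes of the TGFb1 comparison, with library totals for Gclc (−0.001) and Prdx1 (−0.002), with the block for Gclc (−0.005), and with some library left out for 11 genes, whose lowest and highest values were −0.362 and 0.053 for Abcc1, −0.445 and 0.054 for Abcc4, −0.191 and 0.212 for Gclc, −0.33 and 0.036 for Keap1, −0.72 and 0.365 for Nqo1, −0.163 and 0.283 for Pgd, −0.015 and 0.069 for Prdx1, −0.239 and 0.041 for Prdx3, −0.081 and 0.254 for Prdx5, −0.026 and 0.107 for Prdx6 and −0.176 and 0.107 for Txnrd1. The cause of these changes was not tested. Depth did not keep any of the 36 from being tested.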

Other observations

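The ratio of Fth1 to Ftl1 read counts within a library needs no scaling between libraries, and is not corrected for gene length. It was 0.755, 0.964 and 0.621 in TGFb1-treated cells, against 2.62, 3.36 and 2.39 in untreated cells, so Fth1 had fewer reads than Ftl1 in every treated library and more in every untreated one. In the stable lines the ratio was 3.11, 2.97 and 3.36 in Wisp1 cells on collagen, against 2.54, 2.44 and 1.96 in Wisp1 cells on plastic. It was 3.03, 2.93 and 3.08 in EV cells on collagen, against 2.06, 2.10 and 1.94 in EV cells on plastic. In both lines each collagen library was above each plastic library. The TGFb1-treated libraries were the only ones of the 18 with a ratio below 1. A part of the reads of Ftl1 may belong to Ftl2, which would enter every ratio. These ratios were computed after the opposite changes of the chains were seen and carry no test.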
